A study of Mus musculus with 4 samples.

Results

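The genes described are 39 immediate early and dissociation-linked genes, read out of 31253 genes in single-cell RNA libraries of hypoxic mouse lungs. They were given as 40 names and found by their symbol in the gene lists deposited with the 4 count matrices. Ccn1 was present, and its older symbol Cyr61 was not listed as a separate gene. All libraries came from C57BL/6J mice that were 6-8 weeks old and spent 6 weeks in hypoxia, and lungs kept at normal oxygen were not analysed here. The Vegfr2Y949F genotype, called mutant below, has, by its name, phenylalanine in place of a tyrosine of VEGFR2, through which endothelial cells respond to VEGF-A, and WT mice were its control. UMI counts do not show a change of 1 amino acid, so the genotype labels could not be checked here. Each genotype had a library of set A and a library of set B, and each library pooled lung cells of 2 mice. What the letters A and B stand for is not stated in the labels, nor is the sex of the mice. Lungs were minced, digested with collagenase and DNase, strained and freed of red blood cells before capture in 10x Genomics droplets, and the study compared the cells of the genotypes.

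Immediate early genes are transcribed within minutes of a stimulus without new protein synthesis, through factors that already sit in the cell, such as SRF with its ternary complex partners, CREB and NF-kappa-B. Their products are transcription factors of the AP-1, Egr and Nr4a families together with feedback inhibitors that end the response, among them MAP kinase phosphatases, mRNA decay factors and NF-kappa-B inhibitors. In tissue that is digested warm before single-cell capture, enzyme treatment and loss of attachment also induce many of them, so their level can carry a history of handling as well as of the living lung. The members were read here for both contrasts the libraries allow, mutant against WT and set B against set A.

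The promoters of 4 members that the set contrast turns on, or that stand for a group, are shown from 250 bases before to 50 bases after the RefSeq transcription start (build GRCm38.p6). Atf3 had among the larger set differences, Maff and Nfkbia were called in that contrast, and Fos encodes the classic partner of Jun proteins in AP-1. Capitals mark the cyclic AMP response element TGACGTCA and the Egr site GCGNGGGCG in Maff, and a match to the kappa-B consensus in Nfkbia and Fos. The Atf3 window held none of the motifs searched. They are Atf3 at chr1:191183284-191183583, minus strand, Maff at chr15:79347270-79347569, plus strand, the one of its 3 RefSeq starts with these motifs, Nfkbia at chr12:55492598-55492897, minus strand, and Fos at chr12:85473640-85473939, plus strand.
Atf3: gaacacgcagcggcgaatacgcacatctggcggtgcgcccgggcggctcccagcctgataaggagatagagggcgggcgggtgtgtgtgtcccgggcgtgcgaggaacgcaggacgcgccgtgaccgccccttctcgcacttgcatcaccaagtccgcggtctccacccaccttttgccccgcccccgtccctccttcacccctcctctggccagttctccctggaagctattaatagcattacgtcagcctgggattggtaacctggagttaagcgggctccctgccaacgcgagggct
Maff: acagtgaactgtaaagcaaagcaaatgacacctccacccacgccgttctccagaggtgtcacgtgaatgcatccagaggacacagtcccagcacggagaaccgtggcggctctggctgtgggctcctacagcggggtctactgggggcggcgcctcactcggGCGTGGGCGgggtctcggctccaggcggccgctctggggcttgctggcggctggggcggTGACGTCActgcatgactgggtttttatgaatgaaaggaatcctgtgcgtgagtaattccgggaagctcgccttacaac
Nfkbia: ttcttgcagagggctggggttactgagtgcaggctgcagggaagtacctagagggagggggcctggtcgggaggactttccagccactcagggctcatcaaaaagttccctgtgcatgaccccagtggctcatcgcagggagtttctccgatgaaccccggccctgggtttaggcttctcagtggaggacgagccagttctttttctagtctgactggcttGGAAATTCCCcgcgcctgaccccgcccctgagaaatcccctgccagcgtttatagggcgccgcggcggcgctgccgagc
Fos: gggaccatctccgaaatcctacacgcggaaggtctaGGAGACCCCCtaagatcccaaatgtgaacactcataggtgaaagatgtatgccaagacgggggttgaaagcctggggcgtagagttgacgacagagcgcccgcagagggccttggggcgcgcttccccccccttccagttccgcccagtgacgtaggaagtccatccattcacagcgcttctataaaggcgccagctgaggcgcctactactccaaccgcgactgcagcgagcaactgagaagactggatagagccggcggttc

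RefSeq promoters were found for 33 of the 39 members, and for 27025 genes in all. Ier2, Egr1, Nfkbiz, Egr3, Myc and Fosl1 are named without one. On either strand, the cyclic AMP response element TGACGTCA was in the promoters of 4 members (Btg2, Dusp1, Maff and Ppp1r15a) and of 2.03% of all genes. The AP-1 site TGANTCA was in those of 3 members (Csrnp1, Tnfaip3 and Zfp36l1) and of 8.97% of all genes. The Egr site GCGNGGGCG was in those of 10 members and of 6.27% of all genes. The CArG box, the binding site of SRF, was in those of Dusp5, Egr2 and Zfp36 and of 1.81% of all genes. The kappa-B consensus was in those of 7 members (Egr2, Fos, Fosb, Fosl2, Nfkbia, Nr4a1 and Tnfaip3) and of 6.55% of all genes. Such matches describe the letters in these windows.

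The mutant libraries held 15160 barcodes in set A and 11992 in set B, and the WT libraries 13567 in set A and 12568 in set B, with between 83606389 and 96521589 unique molecular identifiers (UMIs) each. After filters on genes, UMIs, mitochondrial share and doublets, 41248 cells were kept. Median UMIs per cell were 4312 in mutant A and 5548.5 in mutant B, against 4339 in WT A and 5472 in WT B, so set B cells were deeper in both genotypes. The median mitochondrial share was 3.54% in mutant A and 3.44% in mutant B, against 3.72% in WT A and 2.97% in WT B. Between 23 and 42 kept barcodes were shared by any 2 libraries. Cells were clustered without the members and without the genes of the lists used below, and 29 of 37 clusters were named from their markers, giving 23 cell types. Each name means cells like that type, and 24046 cells were endothelial. Levels are given in CPM, the UMIs of a gene summed over the cells of a type in a library and scaled to a common total of UMIs, and in such sums fewer expressing cells and less RNA per cell cannot be told apart.

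The members were detected in all 23 types, and most strongly in fibroblasts. Their summed level was 53894 ± 2799 CPM in myofibroblasts, 43484 ± 4958 CPM in alveolar fibroblasts and 41084 ± 1193 CPM in adventitial fibroblasts (mean ± SD, n = 4 libraries). Venous endothelial cells followed with 39495 ± 6260 CPM and general capillary cells with 35349 ± 6497 CPM. Aerocytes, the capillary cells that line the gas exchange surface, had 29617 ± 6609 CPM, and pericytes, the cells wrapped around capillaries, 27849 ± 6710 CPM. Alveolar macrophages had 13067 ± 2484 CPM, T cells 11868 ± 2164 CPM, and alveolar type 1 cells, the flat cells of the alveolar wall, 8042 ± 1685 CPM, the lowest level of the 23 types. In the order of the levels, the libraries of myofibroblasts did not overlap those of alveolar fibroblasts, and each other type overlapped its neighbour in the order.

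**Figure D1:**
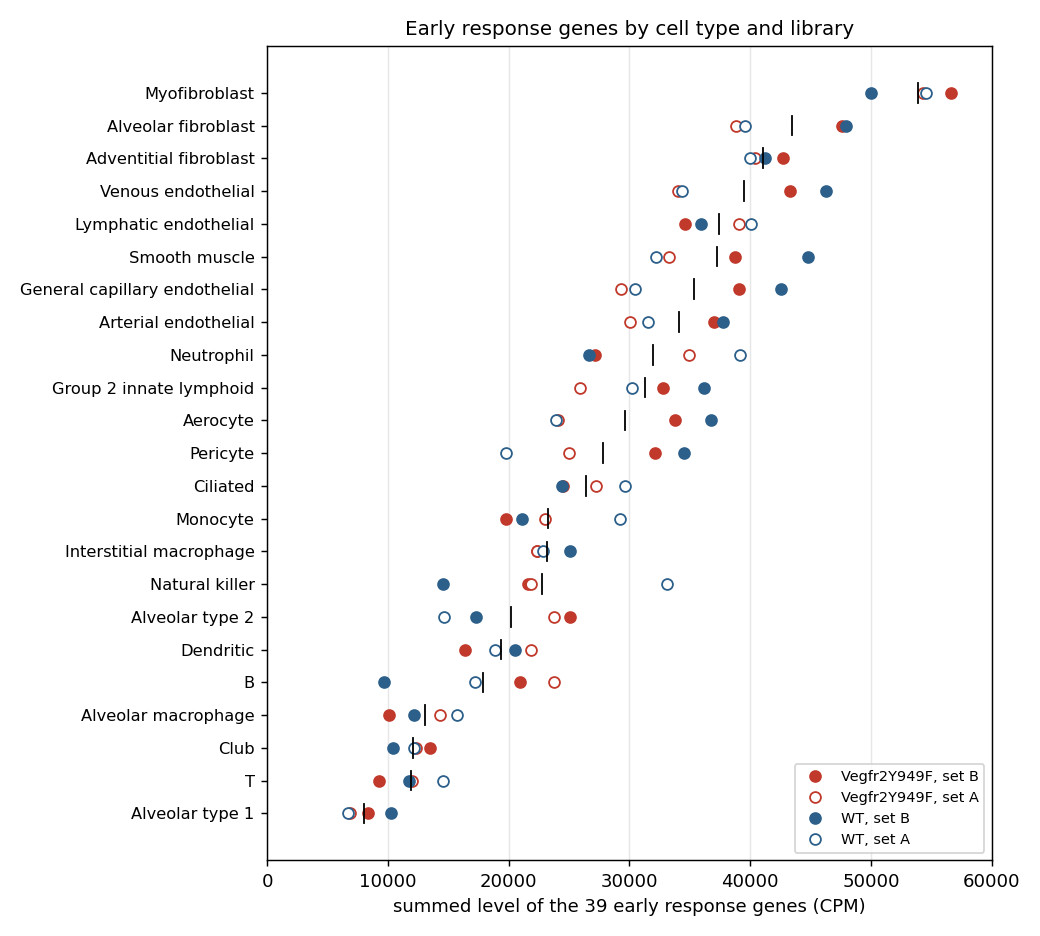
Summed level of the 39 members in each cell type. Each point is a library (CPM of the summed UMIs), red for mutant and blue for WT, filled for set B and open for set A, and the tick is the mean. Myofibroblasts are highest at 53894 CPM on average and alveolar type 1 cells lowest at 8042 CPM, and the endothelial types spread over sets more than over genotypes.

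In all endothelial cells (general capillary, aerocyte, arterial and venous), the members made up 2.82% of the UMIs in mutant A and 3.82% in mutant B, against 2.95% in WT A and 4.14% in WT B. The mutant over WT log2 ratio of the summed level was −0.06 in set A and −0.12 in set B. The set B over set A log2 ratio was 0.44 in mutants and 0.49 in WT. Deposited barcodes with at least 15% mitochondrial UMIs, which were not kept as cells, had lower summed levels, namely 17393 CPM in mutant A and 13612 CPM in mutant B, against 17088 CPM in WT A and 14590 CPM in WT B. Over all deposited barcodes the sums were 28467 CPM in mutant A and 34631 CPM in mutant B, against 29831 CPM in WT A and 35488 CPM in WT B.

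The AP-1 genes were the group with the highest summed level in endothelial cells. The 9 genes of the Fos and Jun families with Atf3 and Maff summed to 10414 CPM in mutant A and 15366 CPM in mutant B, against 11262 CPM in WT A and 16687 CPM in WT B. Fos, which pairs with Jun proteins to form AP-1, had 3105 CPM in mutant A and 3699 CPM in mutant B, against 3095 CPM in WT A and 4213 CPM in WT B. Jun had 2128 CPM in mutant A and 2874 CPM in mutant B, against 2136 CPM in WT A and 2852 CPM in WT B. For both genes each set B library was above each set A library, and the genotypes overlapped. Junb had 1984 CPM in mutant A and 3161 CPM in mutant B, against 2403 CPM in WT A and 3471 CPM in WT B. Jund, the Jun family member known for its steadier expression, had 978 CPM in mutant A and 2100 CPM in mutant B, against 1435 CPM in WT A and 1985 CPM in WT B. Fosb, at 1028 and 981 CPM in mutant A and B against 895 and 876 CPM in WT A and B, did not show the split by set. Atf3, a stress-induced factor of the ATF and CREB family, had 954 CPM in mutant A and 2208 CPM in mutant B, against 1065 CPM in WT A and 2904 CPM in WT B. Fosl1 was low throughout, at 3.87 CPM in mutant A and 13.1 CPM in mutant B, against 4.79 CPM in WT A and 20.98 CPM in WT B.

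The Egr and Nr4a factors with Myc and Csrnp1 summed to 3839 CPM in both mutant libraries, against 3100.0 CPM in WT A and 4208 CPM in WT B. Egr1, a zinc finger factor switched on by ERK signalling, had 2801 CPM in mutant A and 2651 CPM in mutant B, against 2223 CPM in WT A and 2830 CPM in WT B, so neither genotypes nor sets were apart. Egr3 had 202 CPM in mutant A and 209 CPM in mutant B, against 164 CPM in WT A and 327 CPM in WT B. The nuclear receptor Nr4a1 had 249 CPM in mutant A and 285 CPM in mutant B, against 202 CPM in WT A and 358 CPM in WT B. For both of these genes WT B was the highest library and WT A the lowest. Myc, the growth-promoting factor, had 3.40 CPM in mutant A and 7.45 CPM in mutant B, against 3.19 CPM in WT A and 9.34 CPM in WT B.

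The Ier and Btg genes summed to 5377 CPM in mutant A and 8854 CPM in mutant B, against 6857 CPM in WT A and 9627 CPM in WT B. Ier3, a regulator of survival after stress, had 2482 CPM in mutant A and 4292 CPM in mutant B, against 3276 CPM in WT A and 4661 CPM in WT B. Ier2 had 1181 CPM in mutant A and 1850 CPM in mutant B, against 1489 CPM in WT A and 2088 CPM in WT B. The antiproliferative gene Btg2 had 834 CPM in mutant A and 1481 CPM in mutant B, against 1114 CPM in WT A and 1496 CPM in WT B. All 3 were lowest in mutant A, and their set B libraries lay above both set A libraries.

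The feedback inhibitors behaved differently from one another. The MAP kinase phosphatases Dusp1, Dusp2, Dusp5 and Dusp6 summed to 1382 CPM in mutant A and 1191 CPM in mutant B, against 1328 CPM in WT A and 1292 CPM in WT B, with the set B libraries lowest. Most of that sum was Dusp1, a nuclear phosphatase of stress kinases, at 1072 CPM in mutant A and 957 CPM in mutant B, against 1066 CPM in WT A and 1021 CPM in WT B. Dusp6, which inactivates ERK, had 245 CPM in mutant A and 149 CPM in mutant B, against 205 CPM in WT A and 173 CPM in WT B. The inhibitors of NF-kappa-B and cytokine signalling Nfkbia, Nfkbiz, Tnfaip3 and Socs3 summed to 1741 CPM in mutant A and 2671 CPM in mutant B, against 1858 CPM in WT A and 2493 CPM in WT B, with the set B libraries highest. Zfp36 and Zfp36l1, which direct decay of AU-rich mRNAs, summed to 1462 CPM in mutant A and 1584 CPM in mutant B, against 1348 CPM in WT A and 1649 CPM in WT B. Zfp36 alone had 1053 CPM in mutant A and 1235 CPM in mutant B, against 976 CPM in WT A and 1277 CPM in WT B. Its set B libraries lay above its set A libraries, while those of Dusp1 and Dusp6 lay below. Gadd45b, Gadd45g and Ppp1r15a, adaptors of the stress response, summed to 1482 CPM in mutant A and 2203 CPM in mutant B, against 1575 CPM in WT A and 2457 CPM in WT B. The GTPase gene Rhob and the secreted factors Ccn1 and Adamts1 summed to 2537 CPM in mutant A and 2494 CPM in mutant B, against 2128 CPM in WT A and 2988 CPM in WT B. Adamts1, a secreted protease, had 1498 CPM in mutant A and 1403 CPM in mutant B, against 1236 CPM in WT A and 1627 CPM in WT B.

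**Figure D2:**
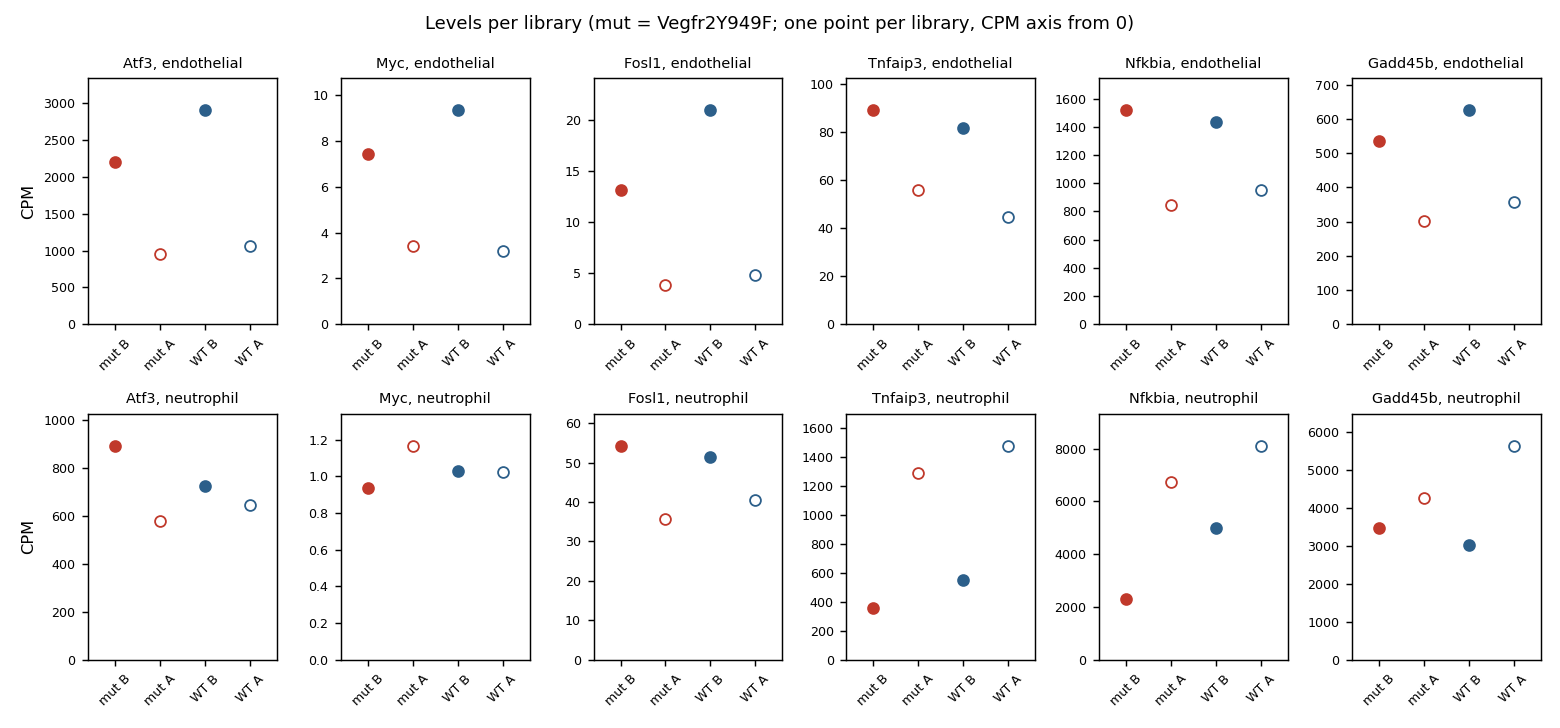
Level of 6 members (CPM, axes from 0) in all endothelial cells in the upper row and in neutrophils in the lower row, with 1 point per library. In endothelial cells Atf3 reaches 2208 CPM in mutant B and 2904 CPM in WT B, above 954 CPM in mutant A and 1065 CPM in WT A, and in neutrophils Tnfaip3 is at 355 CPM in mutant B and 548 CPM in WT B, below 1287 CPM in mutant A and 1477 CPM in WT A.

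The genotype contrast called none of the members. In all endothelial cells 0 of 39 passed edgeR's quasi-likelihood test with Benjamini-Hochberg adjustment, and DESeq2 called 0 (over all 13952 genes tested, edgeR called 0.0%). No member had an unadjusted p under 0.05, and 1.1% of all genes did, so such p-values were rare among all genes. Each genotype held a library of each set and the test had no set term, so set differences counted as spread within a genotype. The lack of calls therefore does not show that the genotypes were equal. With the set letter as a block, 0 members were called in all endothelial cells too. General capillary cells gave the same count, 0 of 39 by edgeR and 0 by DESeq2 (0.0% of 13101 genes called by edgeR). There, no member and 1.77% of all genes had an unadjusted p under 0.05. The median log2 fold change of the members, mutant over WT, was −0.11 in all endothelial cells, beside −0.01 over all genes. The ends of the range were Fosl1 at −0.64 (SE 0.78) and Nfkbiz at 0.20. Atf3 was at −0.37 (SE 0.58), Ier5l at −0.33 (SE 0.36), Egr3 at −0.32 (SE 0.33) and Gadd45g at −0.29 (SE 0.39), each with a standard error as large as the change or larger. In 1 member, Fosb, the 2 mutant libraries lay above both WT libraries, and in 0 members below them (14.6% and 7.04% of all genes). An exact permutation test of 2 libraries against 2 cannot give a p under 0.333, so it could not decide a single gene.

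Read within a set, the direction between genotypes in all endothelial cells was not the same in both sets, and these counts were not tested. In set A, 23 members were higher and 16 lower in mutant than in WT endothelial cells, beside 64.9% of all genes higher. In set B, 8 members were higher and 31 lower, beside 52.5% of all genes higher. In pericytes, 33 members were higher and 5 lower in the mutant of set A (53.2% of genes higher), and 10 were higher and 28 lower in the mutant of set B (54.1% of genes higher). Of 18 cell types, 11 had opposite majorities of members in the sets. In 4 types most members were lower in mutant in both sets, namely alveolar macrophages, T cells, arterial and lymphatic endothelial cells, and in 3 most were higher in both, namely club cells, adventitial fibroblasts and myofibroblasts. In alveolar macrophages 9 were higher and 28 lower in set A (53.6% of genes higher), and 8 higher and 29 lower in set B (57.4% of genes higher). In T cells 10 were higher and 28 lower in set A (42.2% of genes higher), and 6 higher and 32 lower in set B (54.0% of genes higher). In club cells 24 were higher and 14 lower in set A (61.2% of genes higher), and 35 higher and 3 lower in set B (68.3% of genes higher). Over the 18 cell types with at least 20 cells in every library, 686 pairs of member and type passed the low-count filter. Of these, 0 were called between genotypes by edgeR's quasi-likelihood test and 0 by DESeq2 (0.00662% of all pairs of gene and type called by edgeR). The smallest edgeR adjusted p was 0.505, and 28 pairs had an unadjusted p under 0.05. Over all genes, the share at such a p was between 0.702% and 3.7% in each type. The difference of the genotype change between aerocytes and general capillary cells, and between alveolar fibroblasts and general capillary cells, was also tested, and 0 members were called in either by edgeR or by DESeq2 (0.122% and 0.0363% of genes by edgeR). At an unadjusted p under 0.05 there were 1 and 3 members.

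The set contrast called 10 of 39 members in all endothelial cells, all of them higher in set B (1.76% of all genes were called higher and 0.731% lower). They fall in several roles, namely the AP-1 factors Atf3, Fosl1, Fosl2 and Maff, the growth regulator Myc, the inhibitors Tnfaip3, Nfkbia and Dusp5, and the stress adaptors Gadd45b and Gadd45g. Fosl1 rose most, by 2.06 on the log2 scale (SE 0.25, edgeR adjusted p = 0.0174) at a level of a few CPM, followed by Myc at 1.43 (SE 0.17, edgeR adjusted p = 0.0158). Atf3, whose level in each library is given above, rose by 1.42 on the log2 scale (SE 0.19, edgeR adjusted p = 0.0208). Tnfaip3, the A20 protein that removes ubiquitin from NF-kappa-B signalling complexes, had 89.1 CPM in mutant B and 81.9 CPM in WT B, against 56.0 CPM in mutant A and 44.9 CPM in WT A. Its log2 fold change was 0.85 (SE 0.11, edgeR adjusted p = 0.0177). Nfkbia, which holds NF-kappa-B in the cytoplasm, had 1516 CPM in mutant B and 1432 CPM in WT B, against 844 CPM in mutant A and 954 CPM in WT A. Its log2 fold change was 0.79 (SE 0.15, edgeR adjusted p = 0.0469). Gadd45b had 536 CPM in mutant B and 625 CPM in WT B, against 300.2 CPM in mutant A and 358 CPM in WT A, which is 0.90 on the log2 scale (SE 0.16, edgeR adjusted p = 0.0405). Gadd45b and Gadd45g bind stress-activated kinases and cell cycle regulators. Gadd45g had 632 CPM in mutant B and 753 CPM in WT B, against 364 CPM in mutant A and 424 CPM in WT A. Maff, a small bZIP factor, had 192 CPM in mutant B and 205 CPM in WT B, against 128 CPM in mutant A and 138 CPM in WT A. Dusp5, a nuclear ERK phosphatase, had 75.8 CPM in mutant B and 88.4 CPM in WT B, against 57.6 CPM in mutant A and 50.03 CPM in WT A. Log2 fold changes of Gadd45g, Fosl2, Dusp5 and Maff lay between 0.66 and 0.89. In each of these 10 genes both set B libraries lay above both set A libraries. The same libraries picked these genes, so that is no separate support for the calls.

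The other 29 members were not called. Nr4a3 at 0.91 (edgeR adjusted p = 0.0509), Jund at 0.83 (adjusted p = 0.084) and Ier3 at 0.71 (adjusted p = 0.1001) had log2 fold changes of the same size as called members. Fos was at 0.44 (edgeR adjusted p = 0.155) and Egr1 at 0.22 (adjusted p = 0.425). Dusp6 at −0.39 (edgeR adjusted p = 0.106) and Nr4a2 at −0.20 (adjusted p = 0.25) were among the 4 members with a log2 fold change below 0. The median over the 39 was 0.60, beside −0.01 over all genes. At an unadjusted p under 0.05 there were 32 members, and 26.2% of all genes. The libraries of the sets did not overlap for 32 members that were higher and 4 that were lower in set B (21.5% and 38.1% of all genes). Set B endothelial cells were also deeper, with medians of 5400 UMIs in mutant B and 5154.5 in WT B, against 4613 in mutant A and 4153 in WT A, and the part of depth in the calls was not tested, though with each cell thinned to 1500 UMIs the log2 ratio of the summed level, set B over set A, was 0.48, beside 0.46 unthinned.

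**Figure D3:**
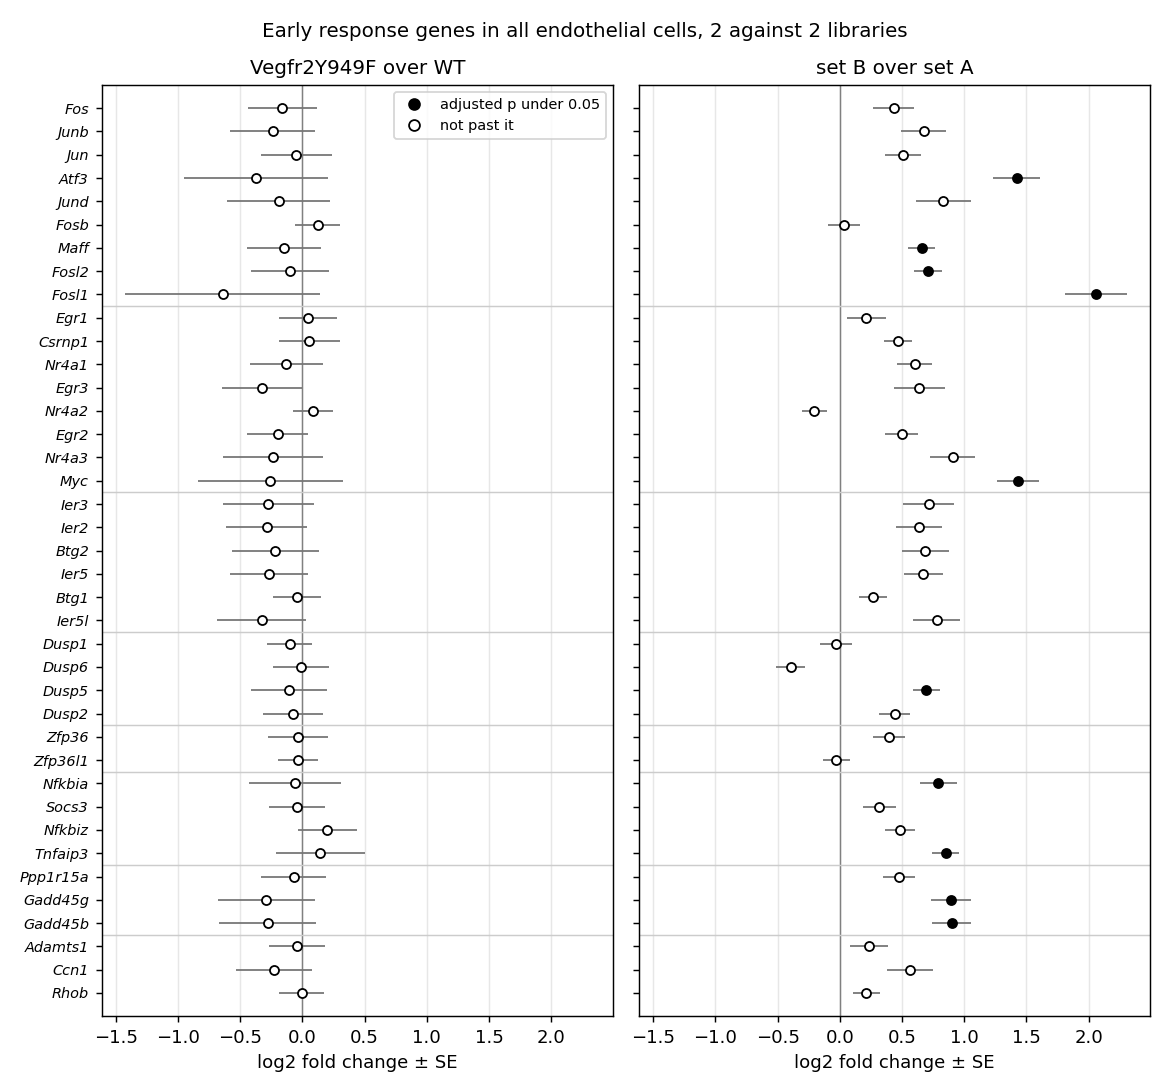
Log2 fold change of each member in all endothelial cells, mutant over WT and set B over set A, with bars of 1 SE. The 10 members called in the set contrast lie between 0.66 and 2.06, and the genotype changes lie between −0.64 and 0.20 with none called.

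The number of calls in endothelial cells rested on single libraries. Without mutant A 1 member was called and without WT B 4, while 23 were called without WT A and 11 without mutant B, and Tnfaip3 was the member called under each of the 10 alternatives. Libraries of the sets did not overlap in endothelial cells for 21.5% of all genes that were higher and 38.1% that were lower in set B, so such separation was common. Of the 30 marker lists, 13 had summed levels in the endothelial cells that did not overlap between the sets. Higher in set B were 4, those of venous endothelial, smooth muscle, classical monocyte and cycling cells. Lower in set B were 9, those of general capillary, alveolar fibroblast, pericyte, interstitial macrophage, nonclassical monocyte, mast or basophil, B, plasma and group 2 innate lymphoid cells. General capillary markers (10 of 10 detected) were at 6790 CPM in mutant B and 6424 CPM in WT B, against 8166 CPM in mutant A and 7248 CPM in WT A, and classical monocyte markers (8 of 8) at 140 CPM in mutant B and 133 CPM in WT B, against 108 CPM in mutant A and 87.1 CPM in WT A. Venous markers (10 of 10) were at 1023 CPM in mutant B and 1069 CPM in WT B, against 895 CPM in mutant A and 916 CPM in WT A. Mast or basophil markers (7 of 7) were at 279 CPM in mutant B and 315 CPM in WT B, against 522 CPM in mutant A and 417 CPM in WT A. Smooth muscle markers (8 of 8) were low, at 32.6 CPM in mutant B and 31.9 CPM in WT B, against 23.1 CPM in mutant A and 24.7 CPM in WT A. Such sums do not show which cells the RNA came from, and Plac8 is in both the arterial and the classical monocyte list. The part of these lists in the set difference was not tested.

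General capillary cells, the most numerous endothelial type, had 8 members called higher in set B and 0 lower (1.37% and 0.443% of genes), all of them among the 10 above. Atf3 had 2316 CPM in mutant B and 3063 CPM in WT B, against 1011 CPM in mutant A and 1093 CPM in WT A, a log2 fold change of 1.45. Without mutant A or without WT A, 0 were called, and without mutant B 15. The clusters within the type differed in size of change. Cluster 0 summed to 36605 CPM in mutant B and 36283 CPM in WT B, against 24451 CPM in mutant A and 26798 CPM in WT A. A cluster of low UMI count summed to 22781 CPM in mutant B and 25780 CPM in WT B, against 21708 CPM in mutant A and 23763 CPM in WT A. Without that cluster 6 members were called.

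The aerocyte, venous and arterial cells had 7, 13 and 5 members called higher in set B. For aerocytes this was beside 0.905% of genes, and the genes were Atf3, Fosl1, Fosl2, Gadd45b, Gadd45g, Ier5 and Maff. For venous cells it was beside 3.85% of genes, and Dusp6 fell, with a log2 fold change of −0.53 (1.84% of genes called lower). For arterial cells it was beside 1.07% of genes, and the genes were Atf3, Fosl1, Gadd45b, Myc and Nfkbia. In venous cells Tnfaip3 had 163 CPM in mutant B and 185 CPM in WT B, against 90.8 CPM in mutant A and 71.2 CPM in WT A, a log2 fold change of 1.22 (SE 0.14). Nfkbia in venous cells had 2415 CPM in mutant B and 2478 CPM in WT B, against 1172 CPM in mutant A and 1313 CPM in WT A. For both genes, which the set test picked from the same libraries, the sets were apart in venous cells, and the genotypes overlapped. The counts again moved with single libraries, since aerocytes had 0 calls without WT A and 1 without mutant A, arterial cells 0 without mutant A and 1 without WT B, and venous cells 29 without mutant A, 27 without WT A and 7 without WT B.

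Pericytes had 10 members called higher in set B and 0 lower (0.638% and 0.118% of genes), among them Atf3, Gadd45b, Jun, Ier2 and Egr2. Atf3 had 447 CPM in mutant B and 999.9 CPM in WT B, against 238 CPM in mutant A and 205 CPM in WT A. Its log2 fold change was 1.79 (SE 0.27, edgeR adjusted p = 0.0002975). Jun had 2900 CPM in mutant B and 3389 CPM in WT B, against 1830 CPM in mutant A and 1208 CPM in WT A. The call count was 22 without mutant A, 18 without WT A, 4 without mutant B and 0 without WT B, and with the removed doublets kept it was also 0. Gadd45b had 279 CPM in mutant B and 367 CPM in WT B, against 154 CPM in mutant A and 126 CPM in WT A. All of these pericyte genes, picked by the set test from the same libraries, had both set B libraries above both set A libraries. In alveolar fibroblasts Tnfaip3 rose by 1.17 and Maff by 1.01 on the log2 scale (0.232% of genes called higher), and 17 were called without WT A. Maff had 500.5 CPM in mutant B and 430.5 CPM in WT B, against 219 CPM in mutant A and 264 CPM in WT A. The summed level of alveolar fibroblasts had a set B over set A log2 ratio of 0.29, and 0.12 after thinning each cell to 1500 UMIs.

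**Figure D4:**
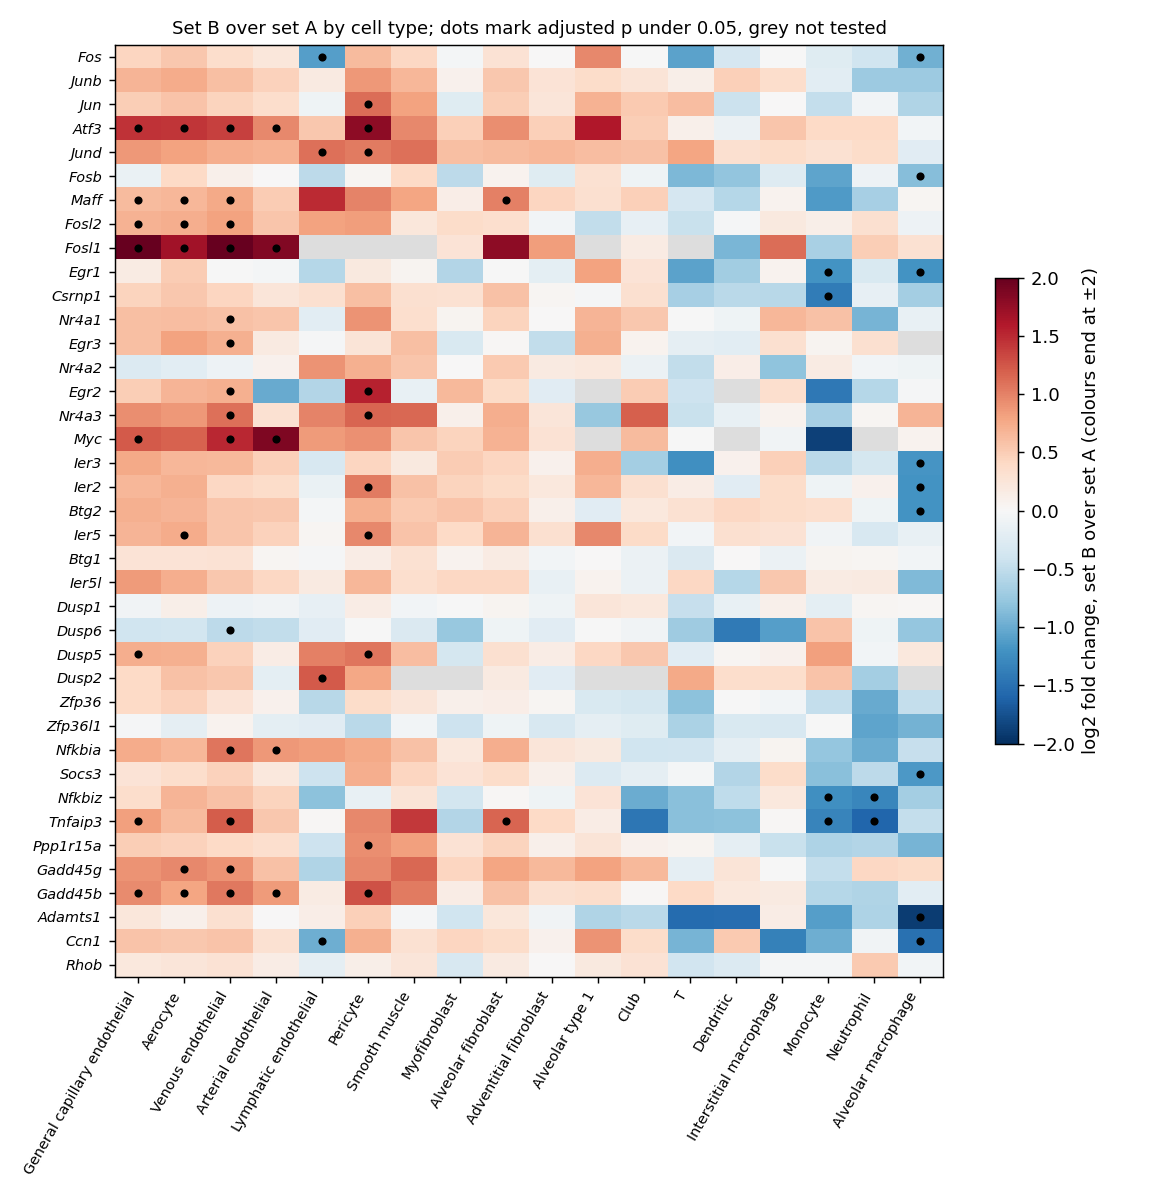
Set B over set A log2 fold change of each member in each tested cell type, with dots on called pairs and grey where a member was not tested. Called pairs are higher in set B in the capillary, venous, arterial, pericyte and alveolar fibroblast columns, apart from Dusp6 in venous cells, mixed in lymphatic cells, and lower in set B in the alveolar macrophage, monocyte and neutrophil columns.

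Over the 18 types, 65 of 686 pairs of member and type were called between sets, 47 higher and 18 lower in set B, in 10 types (0.668% and 0.426% of all pairs of gene and type). At an unadjusted p under 0.05 there were 308, beside 6.87% to 24.9% of all genes in each type. Atf3 and Gadd45b were called higher in 5 types each, and Fosl1 and Maff in 4 each. In all, 31 members were called in at least 1 type and 8 in none. The same count over all genes is not given here, and the types come from the same libraries. Ier2 and Tnfaip3 were called in both directions.

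In neutrophils, alveolar macrophages and monocytes the called members fell in set B. Neutrophils, the short-lived granulocytes that arrive with the blood, had summed levels of 27141 CPM in mutant B and 26688 CPM in WT B, against 34935 CPM in mutant A and 39138 CPM in WT A. Tnfaip3 had 355 CPM in mutant B and 548 CPM in WT B, against 1287 CPM in mutant A and 1477 CPM in WT A, which is −1.59 on the log2 scale (SE 0.24, edgeR adjusted p = 0.0341). Nfkbiz, an inducible NF-kappa-B cofactor, had 433 CPM in mutant B and 586 CPM in WT B, against 1321 CPM in mutant A and 1229 CPM in WT A, which is −1.30 on the log2 scale (SE 0.21, edgeR adjusted p = 0.0376). These 2 members were called lower and 0 higher (0.129% and 0.0286% of genes). Both stayed called when any 1 library was left out, and neither was called with stricter cells or with doublets kept. The count of members called lower was 6 without mutant B and 7 without WT B, and 2 without either set A library. Nfkbia had 2303 CPM in mutant B and 4999.5 CPM in WT B, against 6728 CPM in mutant A and 8110 CPM in WT A, and was not called. Atf3 was not lower in set B neutrophils, at 891 CPM in mutant B and 724 CPM in WT B, against 578 CPM in mutant A and 647 CPM in WT A.

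Alveolar macrophages, the resident phagocytes of the air space, summed to 10059 CPM in mutant B and 12162 CPM in WT B, against 14321 CPM in mutant A and 15725 CPM in WT A. Adamts1, Btg2, Ccn1, Egr1, Fos, Fosb, Ier2, Ier3 and Socs3 were called lower in set B, 9 members beside 2.04% of genes called lower, and 0 were called higher (0.0932% of genes). The set B libraries held 92 cells in mutant and 185 in WT, against 105 in mutant and 46 in WT of set A. Median depths were 10527.5 UMIs in mutant B and 14228 in WT B, against 5739 in mutant A and 5167 in WT A. Thinned like the endothelial cells above, set B summed to 10106 CPM in mutant and 12834 CPM in WT. Set A then summed to 13684 CPM in mutant and 16130 CPM in WT. The part of depth in the calls was not tested. Fos had 417 CPM in mutant B and 422 CPM in WT B, against 768 CPM in mutant A and 831 CPM in WT A. Ier2 had 170 CPM in mutant B and 186 CPM in WT B, against 380 CPM in mutant A and 422 CPM in WT A. Egr1 had 210 CPM in mutant B and 275 CPM in WT B, against 556 CPM in mutant A and 540 CPM in WT A. The sets were apart in each of these genes, which the set test had picked from the same libraries. The count was 4 without mutant B, 13 without mutant A and 14 without WT B, and 1 with doublets kept. Monocytes had 4 members called lower, Csrnp1, Egr1, Nfkbiz and Tnfaip3 (0.484% of genes), with 28 cells in WT A and 0 calls without mutant A or without WT A. In monocytes Egr1 had 329 CPM in mutant B and 315 CPM in WT B, against 560 CPM in mutant A and 1031 CPM in WT A.

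Lymphatic endothelial cells were mixed, with Jund and Dusp2 called higher and Fos and Ccn1 called lower (0.963% and 1.22% of genes). The set B libraries held 106 cells in mutant and 161 in WT, against 27 in mutant and 23 in WT of set A. Fos had 2837 CPM in mutant B and 2392 CPM in WT B, against 5210 CPM in mutant A and 6206 CPM in WT A. Jund had 3007 CPM in mutant B and 3177 CPM in WT B, against 1255 CPM in mutant A and 1660 CPM in WT A. The sets did not overlap in either gene, and both were picked by the set test from the same libraries. With stricter cells none of the 4 calls was made, and with doublets kept 1 member was called higher and 0 lower. Leaving out a library gave 4 higher and 0 lower without mutant B, 2 and 1 without WT B, 5 and 1 without mutant A, and 6 and 4 without WT A.

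Endothelial RNA was present in the sums of the other types and was lower in both set B libraries than in both set A libraries in 7 of the 9 types read, namely neutrophils, alveolar macrophages, monocytes, T cells, dendritic cells, pericytes and alveolar type 1 cells. Interstitial macrophages and alveolar fibroblasts overlapped between the sets, and in interstitial macrophages it was 6.18% of the endothelial level in mutant B and 4.52% in WT B, against 5.49% in mutant A and 11.4% in WT A. The level of 4 endothelial markers (Cdh5, Cldn5, Tie1 and Egfl7) in neutrophils was 3.03% of the endothelial level in mutant B and 5.40% in WT B, against 6.31% in mutant A and 9.15% in WT A. In alveolar macrophages it was 1.94% in mutant B and 1.49% in WT B, against 5.52% in mutant A and 11.8% in WT A. Each library's endothelial profile was then taken off at the percentage that these markers gave for the type in that library. Neutrophil sums were then 26796 CPM in mutant B and 25848 CPM in WT B, against 35386 CPM in mutant A and 40113 CPM in WT A. The log2 ratio of Tnfaip3 in neutrophils, set B over set A, was −1.92 in mutants and −1.50 in WT after the subtraction, beside −1.86 and −1.43 before it. In alveolar macrophages the log2 ratio of Fos was −0.84 in mutants and −0.54 in WT after the subtraction, beside −0.88 and −0.98 before it. Adamts1 in alveolar macrophages was left at 25.9 CPM in mutant B and 4.84 CPM in WT B, against 0 CPM in mutant A and 95.0 CPM in WT A, so its direction in mutants did not hold.

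The difference in set change between cell types was tested directly in models over both types with terms for library. Between aerocytes and general capillary cells 0 members were called by edgeR, with 5 at an unadjusted p under 0.05, a smallest adjusted p of 0.244 and 0 by DESeq2 (0.0% of genes). Between alveolar fibroblasts and general capillary cells 1 was called (0.167% of genes), Nr4a2, whose change was 0.81 higher in fibroblasts on the log2 scale (SE 0.12, edgeR adjusted p = 0.0107). After the levels were seen, neutrophils and alveolar macrophages were tested against general capillary cells in the same way. The set change was lower in neutrophils for 16 members (1.49% of genes) and lower in alveolar macrophages for 22 (2.47% of genes), and higher for 0 members in either (0.0524% and 0.493% of genes). These counts include members whose change was smaller as well as members whose change was opposite. The largest difference was Tnfaip3 in neutrophils at −2.65 (SE 0.33, edgeR adjusted p = 2.16e-12). In the models of neutrophils and alveolar macrophages such p-values rest on a spread shared over genes, and not on each gene's own spread between pools.

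The members were also counted in single cells after each was thinned to 1500 UMIs, with shallower cells left out. The median general capillary cell had 58 member UMIs in mutant B and 64 in WT B, against 41 in mutant A and 42 in WT A. The median neutrophil had 40 in mutant B and 39 in WT B, against 52 in mutant A and 57 in WT A. Atf3 had a UMI in 81.5% of general capillary cells in mutant B and 83.3% in WT B, against 54.8% in mutant A and 54.9% in WT A. Without thinning these shares were 87.8% in mutant B and 89.4% in WT B, against 72.5% in mutant A and 69.6% in WT A. Median depths before thinning were 4899 UMIs in mutant B and 4781 in WT B general capillary cells, against 4175 in mutant A and 3774 in WT A, and thinning left out 257 and 229 cells of the set B libraries (mutant, then WT) and 298 and 284 of the set A libraries. T cells, read for comparison, had an Atf3 UMI in 12.04% of cells in mutant B and 13.4% in WT B, against 7.03% in mutant A and 8.96% in WT A. Without thinning the T cell shares were 27.9% in mutant B and 30.3% in WT B, against 18.3% in mutant A and 17.1% in WT A, at median depths of 5849.5 and 5761 UMIs in the set B libraries and 4739 and 4436.5 in the set A libraries, again mutant then WT. The share thus lay far below that of general capillary cells in every library, and it too was higher in set B. Most members went the other way in T cells. Of 38 tested, 28 had a set B over set A log2 fold change below 0 and 10 above, with a median of −0.36 and 0 called by edgeR.

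**Figure D5:**
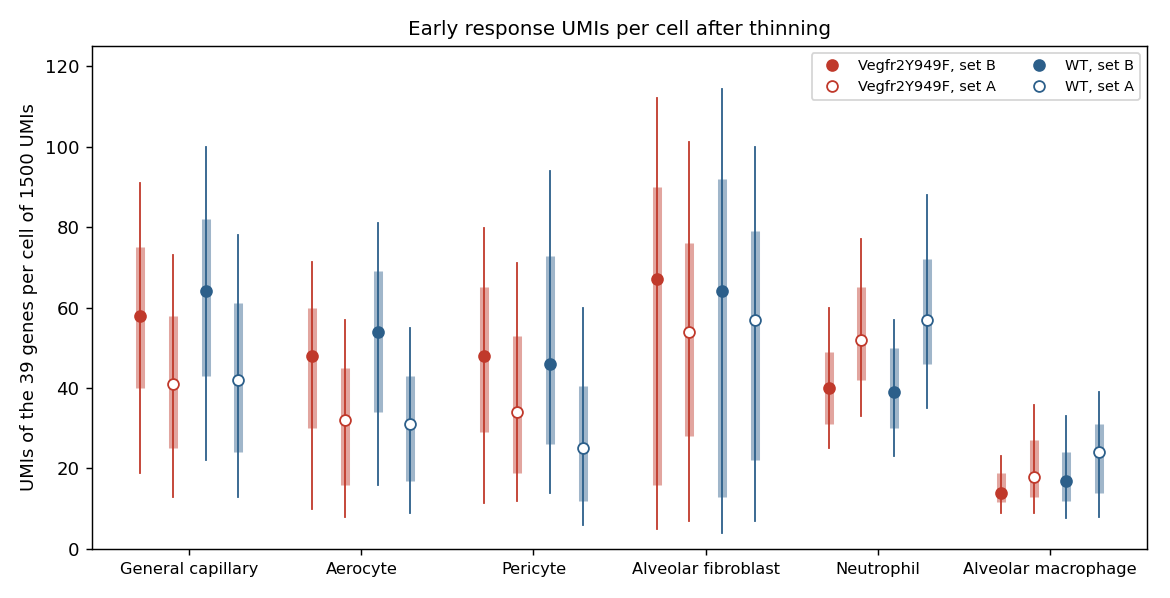
Member UMIs per cell after thinning each cell to 1500 UMIs, by cell type and library. Points are medians over cells, thick bars run over the quartiles and thin lines from the 10th to the 90th percentile. The median is 58 in mutant B and 64 in WT B general capillary cells, against 41 in mutant A and 42 in WT A, and the order of the sets is reversed in neutrophils.

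Genes of related pathways were read from 9 lists in all endothelial cells. Over all genes tested there, edgeR called 1.76% higher and 0.731% lower in set B, and 26.2% had an unadjusted p under 0.05. Of 40 tested other early response genes, 13 were called higher in set B and 0 lower, with a median log2 fold change of 0.48. Gem, a small GTPase, had 186 CPM in mutant B and 165 CPM in WT B, against 66.7 CPM in mutant A and 69.1 CPM in WT A. Rnd3 and Ccn2 also rose, by 1.27 and 1.24 on the log2 scale. Of 20 NF-kappa-B subunits and targets, 6 were called higher and 0 lower, with a median of 0.35, among them the subunits Rel at 0.93 and Relb at 0.78. Of 18 SRF, CREB and ERK regulators only Srf was called, at 1.04, and of 12 cytokines and chemokines only Cxcl1, at 1.12. Of 13 bZIP partners Mafk was called higher at 0.79 and Maf lower at −0.89, and of 16 chaperones Dnajb4 was called higher at 0.80. Of 11 MAP kinase feedback genes 0 were called by edgeR, 1 by DESeq2 and 4 at an unadjusted p under 0.05, with a median of 0.09. Of 10 glucocorticoid targets 0 were called by edgeR, 3 by DESeq2 and 5 at an unadjusted p under 0.05, with a median of −0.08. Of 11 genes of the integrated stress and unfolded protein response 0 were called by edgeR, 3 by DESeq2 and 6 at an unadjusted p under 0.05, with a median of 0.28.

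In the genotype contrast 0 genes of these lists were called by edgeR and 0 by DESeq2, with 4 at an unadjusted p under 0.05 (1.1% of all genes). The chaperones had the lowest median, −0.43, with 0 of 16 above 0. Hspb1, a small heat shock protein, had 952 CPM in mutant A and 1672 CPM in mutant B, against 2755 CPM in WT A and 2071 CPM in WT B, a log2 fold change of −0.92 (edgeR adjusted p = 1.0). Hsph1 and Hspe1 were at −0.81 and −0.68. For Hspb1 both mutant libraries lay below both WT libraries, and WT A was the highest library. Among the other early response genes Pim1 was at 0.38, with both mutant libraries above both WT libraries.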

How the data were processed

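The deposited matrices are raw UMI counts, whole numbers for each gene in each barcode. Per the file headers they are output of Cell Ranger 6.1.1. The submitters' processing notes name the build mm10 and the tools fastp, UMI-tools and Seurat 4.1.0. The gene annotation and the counting settings are not given in the sources used here, and coordinates come from RefSeq promoters of the same build. Cell types were rebuilt from markers, so they can differ from the study's.

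Cells were barcodes with 500 genes or more, 1000 UMIs or more and under 15% mitochondrial UMIs. Scrublet (in scanpy 1.11.5) marked 387 cells of Vegfr2Y949F A, 0 of Vegfr2Y949F B, 0 of WT A and 64 of WT B at its automatic threshold, so the highest 8% of scores in each library were removed instead. Cells were clustered with Leiden (leidenalg 0.10.2, resolution 1) on 2000 variable genes, 40 principal components and 15 neighbours, leaving out the members and the listed genes, with no integration. A cluster was named where at least 3 markers of a type were in at least 20% of its cells and its score led by 0.3.

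UMI counts were summed per library and type, and mutant was compared with WT and set B with set A by edgeR's quasi-likelihood test with TMM factors, filterByExpr and no covariate (version 4.0.16 in R 4.3.3), with Benjamini-Hochberg adjustment over all genes tested in a type and calls at an adjusted p under 0.05. Nothing in the labels says that the pools of a genotype came from separate litters or days, so p-values measure the spread between 2 pools. The test also shares the estimate of spread over genes. In the set models of neutrophils or alveolar macrophages with general capillary cells, the p-values rest on that shared estimate. Alternatives were DESeq2 1.42.0, its size factors in edgeR, no low-count filter, a replicate block, stricter cells (1000 genes, 2000 UMIs, under 10% mitochondrial UMIs), doublets kept and each library left out. The test was also tested on simulated data. With 97 genes changed by a log2 fold change of 1 between sets in endothelial cells, it called 87.6% of them, and with 96 changed between genotypes 85.4%. In neutrophils it called 43.6% of 94 genes changed by that size between sets. Between genotypes in the measured endothelial cells, Hspb1 had a log2 fold change of −0.92 (SE 0.34) and was not called. Whether the shares above hold for genes with that spread was not tested. The genotype test had no set term, and whether its 85.4% holds for genes that also differ between the sets was not tested. No 2 libraries agreed within sampling noise, as their general capillary counts differed by a chi-square of 14.7 to 98.1 per degree of freedom.

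The members and the gene lists were chosen with earlier results of these data known. Genes named with values were the 12 members highest in endothelial cells, members called in any type and the 5 with the largest changes in each contrast, and the 3 listed genes with the smallest p per list. Further members and library values were named after their values were seen.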

Additional observations from a re-analysis of the deposited data

Results flagged for a closer look

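A set change that differed between a cell type and general capillary cells, by edgeR's quasi-likelihood test of the interaction, was seen for 39 pairs of member and type, each counted once per type. Values are differences of log2 fold changes, set B over set A, in the type minus general capillary cells.

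In alveolar fibroblasts Nr4a2 was at 0.81. In this gene the level was 515 CPM in mutant B and 546 CPM in WT B, against 439.5 CPM in mutant A and 339 CPM in WT A.

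In neutrophils 16 members differed, all with a lower change. Among AP-1 factors Fosl1 was at −1.93, Junb at −1.64, Maff at −1.53 and Atf3 at −1.25. Among NF-kappa-B inhibitors Tnfaip3 was at −2.65, Nfkbia at −2.07 and Nfkbiz at −1.89. Among receptors, stress and decay genes Gadd45b was at −1.77, Nr4a1 at −1.74, Zfp36 at −1.62, Ppp1r15a at −1.30, Zfp36l1 at −1.29 and Nr4a3 at −1.20. Ier3 was at −1.34, Dusp2 at −1.32 and Ier5 at −1.21.

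In alveolar macrophages 22 members differed, all with a lower change. Among AP-1 and Egr factors Fosl1 was at −1.95, Atf3 at −1.43, Junb at −1.35, Fos at −1.30, Egr1 at −1.29, Jun at −1.07 and Jund at −1.05. Among Ier and Btg genes Ier3 was at −1.87, Btg2 at −1.83, Ier2 at −1.80, Ier5l at −1.80 and Ier5 at −0.77. Among secreted factors and inhibitors Ccn1 and Adamts1 were at −2.01 each, Socs3 at −1.36, Tnfaip3 at −1.21, Nfkbia at −1.14, Nfkbiz at −0.94 and Zfp36 at −0.79. Ppp1r15a was at −1.36, Gadd45b at −1.19 and Csrnp1 at −1.08. The part of endothelial RNA in alveolar macrophages and neutrophils in these differences was not tested in these models.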

How the results depend on the processing

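Between genotypes in all endothelial cells the count of called members was 0, and leaving out each library gave 0 to 1 (without WT A, Fosl1). In general capillary cells it was 0, 1 with no low-count filter, and 0 to 1 with a library left out. Over all pairs of member and type it was 0, 4 with no low-count filter, and 2 to 10 with a library left out. Between sets it was 10 of 39 in all endothelial cells, 4 with no low-count filter, 29 by DESeq2, and 1 to 23 with a library left out. In general capillary cells it was 8, 0 with no low-count filter, 26 by DESeq2, and 0 to 15 with a library left out. Over all pairs it was 65, 137 with no low-count filter, 138 by DESeq2, and 66 to 130 with a library left out. Of the 29 called by DESeq2 in all endothelial cells, 28 were higher and 1 was lower in set B, and they included all members called by the main test. Shares of all genes called under these alternatives are not given here, so the changes in count are not set against all genes. For the difference of set change between cell types, the count for aerocytes was 0, and 3 with no low-count filter and with doublets kept. For alveolar fibroblasts it was 1, 3 with no low-count filter and 0 to 3 with a library left out. For neutrophils, tested after the data were seen, it was 16, 5 with stricter cells, 9 with doublets kept and 6 to 14 with a library left out, and for alveolar macrophages 22, and 8 to 20 with a library left out. The cause of these changes was not tested, though leaving out a library leaves 1 library in a group.

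The set letter was also used as a replicate block, since the labels number libraries of both genotypes by it. Deviations from the genotype means of the libraries of a letter correlated at 0.576 over 13952 genes, but with 2 pairs and no label saying what the letter marks, they share only a letter. With the replicate block 0 members were called between genotypes in endothelial cells and 0 in general capillary cells, and 6 pairs of member and type. With genotype as the other term, 23 members were called between sets in endothelial cells, 18 in general capillary cells and 164 pairs. Shares of all genes called in these block models are not given here.

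Of the named members' log2 fold changes between genotypes in all endothelial cells, 131 values under alternatives kept direction and side of the threshold, 1 passed it and 28 changed sign, each when a library was left out, which leaves a genotype with a library of 1 set. With a library left out, the log2 fold changes, mutant over WT, ranged from −0.81 to 0.12 for Ier3, −0.38 to 0.10 for Fos, −0.70 to 0.11 for Junb, −0.13 to 0.25 for Egr1, −0.36 to 0.21 for Jun, −1.19 to 0.56 for Atf3, −0.73 to 0.052 for Ier2 and −0.94 to 0.30 for Jund. They ranged from −0.24 to 0.19 for Adamts1, −0.78 to 0.19 for Btg2, −0.63 to 0.35 for Nfkbia, −0.23 to 0.20 for Zfp36, −1.87 to 0.82 for Fosl1, −0.93 to 0.10 for Ier5l, −0.75 to 0.28 for Egr3 and −0.83 to 0.21 for Gadd45g.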
